A study of Mus musculus with 12 samples.

Results

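The proteasome subunit genes were taken as all protein-coding genes whose symbol is Psma, Psmb, Psmc, Psmd, Psme, Psmf or Psmg followed by a number, without the immunoproteasome genes Psmb8, Psmb9 and Psmb10. This rule found 44 of the 29937 genes in the deposited table, made up of 7 Psma, 8 Psmb, 6 Psmc, 14 Psmd, 4 Psme, 1 Psmf and 4 Psmg genes. Their transcripts were measured by sequencing of poly(A) RNA in 12 libraries labelled 4T1, an adherent wild-type line from a mouse mammary carcinoma. The groups OAP2, Oxa and APAP, each named after the agent in its treatment label, and the control group PBS held 3 libraries each. The PBS libraries carry the title PBS and the treatment label DMSO, so their labels name a pair of vehicles. The series text speaks of xenografts grown from cells, while the labels describe cultured cells. The sources used here give no doses or treatment times, and do not say whether the libraries of a group came from separate cultures or animals. Each p-value therefore reflects the spread between libraries, which may be technical.

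The proteasome is the protease that degrades proteins tagged with ubiquitin in the cytosol and nucleus. Its 20S core is a barrel of alpha rings (Psma), which gate the entrance, and beta rings (Psmb), of which Psmb5, Psmb6 and Psmb7 carry the cutting sites. The 19S cap holds a ring of ATPases (Psmc), which unfold the substrate, and non-ATPase subunits (Psmd), which bind and remove ubiquitin. The activators (Psme) can cap the core in place of the 19S particle, Psmf1 was described as an inhibitor of the core, and the Psmg proteins guide assembly of the alpha ring. When proteasome activity falls short, the transcription factor encoded by Nfe2l1 raises the genes of core and cap together, and interferons raise Psme1, Psme2 and the immunoproteasome subunits.

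The libraries held between 64071751 and 71500487 counts. Epithelial markers, given as the mean log2(FPKM + 1) of their list, lay between 7.19 and 7.51 in all 12 libraries. Of the 12 libraries, 3 stood apart. Control library PBS 2 had red blood cell markers at 4.83 and neutrophil markers at 2.41, against at most 0.102 and 0.0721 in the other 11 libraries, and Hbb-bs, a globin gene, was at 89.7 FPKM there. Control library PBS 1 had the highest macrophage markers, at 1.85 against 0.640 to 1.28 in the other libraries, with the lysozyme gene Lyz2 at 31.0 FPKM in PBS 1, 6.23 FPKM in PBS 2 and 0 in PBS 3. Library OAP2 3 was the highest of its group in 38 of the 43 tested proteasome genes, against 37.6% of all genes tested. PBS 2 was the highest of its group in 34, against 42.4% of all genes. Oxa 3 was the highest of its group in 31, against 32.4% of all genes, by a smaller median (0.07 in log2 CPM, against 0.35 in OAP2 3 and 0.24 in PBS 2). Results that rest on PBS 1, PBS 2 or OAP2 3 are also given without them, and leaving out PBS 2 and OAP2 3 together was chosen after seeing the data. In bulk RNA, fewer cells of a type and less RNA per cell cannot be told apart.

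Of the 44 genes, 43 reached 1 FPKM (fragments scaled to transcript length and library size) in at least 3 libraries and were tested, and all 43 did so in all 12 libraries. The exception was Psmb11, the beta subunit of thymic epithelium, at 0 to 0.05 FPKM. Psma8, the alpha subunit of the testis, has no protein-coding entry in the table, lies outside the rule and was at 0.01 FPKM or below. The median over the 43 genes of the mean level was 30.4 FPKM, against 6.85 FPKM over the 12036 genes tested, and 41 of the 43 lay above that median. Their spread over all 12 libraries, as a coefficient of variation, had a median of 13.4%, against 16.5% over all genes tested, and ran from 3.60% in Psmd9 to 40.6% in Psme1.

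Levels differed widely between subunits that stand in the same particle. The highest mean levels over 12 libraries were those of Psmd2, the large scaffold subunit of the cap, at 99.4 ± 10.4 FPKM (SD, n = 12), the ATPase Psmc1 at 96.1 ± 8.72, the alpha subunit Psma6 at 95.8 ± 13.3 and the nuclear activator Psme3 at 94.7 ± 8.11. These 4 do not differ beyond their spread. Among alpha subunits the lowest was Psma2 at 11.7 ± 2.65 FPKM, and among tested beta subunits Psmb1 at 17.6 ± 2.45. The lowest of all was Psmd9 at 3.08 ± 0.111 FPKM. Psmd9, with Psmd5 (7.60 ± 0.723 FPKM) and Psmd10 (10.3 ± 1.28 FPKM), encodes a chaperone of cap assembly that leaves the finished particle. The 4 chaperones of alpha ring assembly averaged from 9.23 FPKM for Psmg3 to 22.8 FPKM for Psmg1. This order is approximate, because in 39 of the 44 genes the length implied by the ratio of count to FPKM exceeded the longest annotated transcript by over 10%. Ranking the genes by CPM (the count scaled to library size) per kilobase of the longest coding transcript gave a Spearman correlation of 0.90 with the FPKM order over the 43 genes, but single genes moved. On that scale Psmd7, a lid subunit, was second (147, behind Psmd2 at 164), and Psmb5, the highest beta subunit by FPKM (64.6 ± 6.88), was at rank 21 (78.4), behind 5 other beta subunits.

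**Figure D1:**
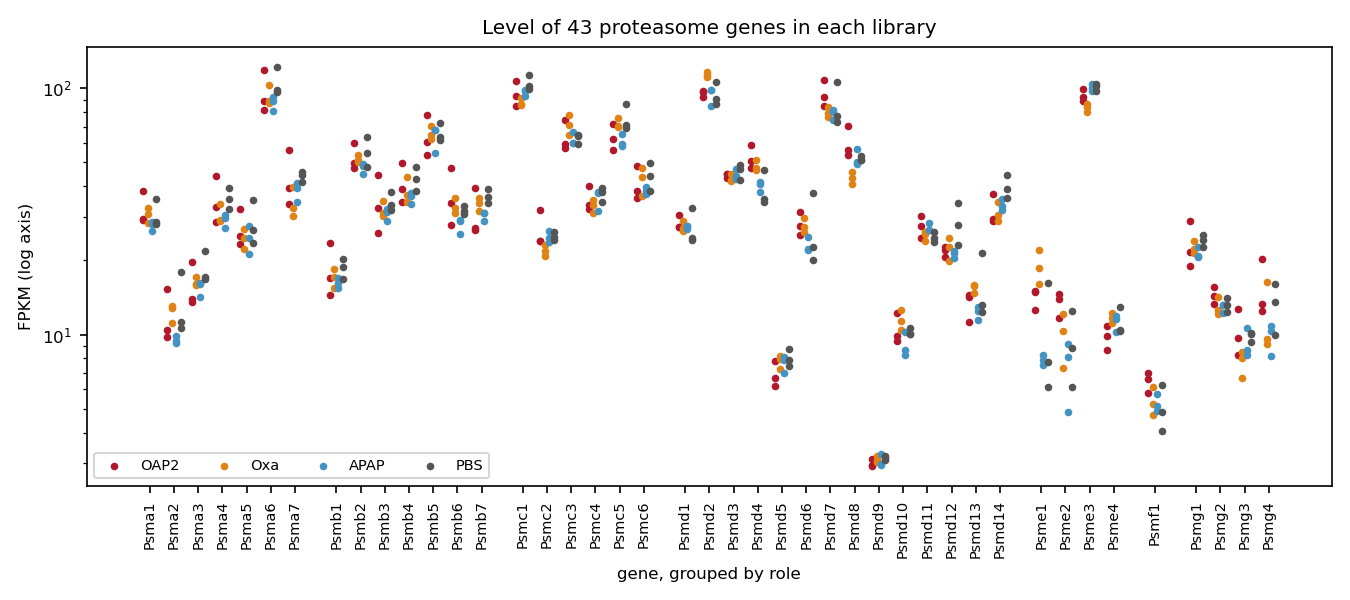
FPKM (log axis) of the 43 tested proteasome genes, grouped by role along the x axis, with 1 point per library and the groups OAP2, Oxa, APAP and PBS side by side. Mean levels run from 3.08 FPKM for Psmd9 to 99.4 FPKM for Psmd2, and Psme1 has the widest spread, with a coefficient of variation of 40.6%.

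Few proteasome genes passed the test under any agent. A gene was called at an adjusted p below 0.05 (edgeR quasi-likelihood test, Benjamini-Hochberg over 12036 genes). In OAP2 against PBS, 1 of 43 genes was called, the ubiquitin receptor gene Psmd4, which was higher, while 5.25% of all genes tested were called (2.14% higher and 3.11% lower). In Oxa against PBS 1 was called, the activator gene Psme1, also higher, against 10.1% of all genes (5.35% higher and 4.76% lower). In OAP2 against Oxa 1 was called, the lid gene Psmd8, higher in OAP2, against 12.9% of all genes (6.02% higher and 6.91% lower). No member was called in APAP against PBS, where 0.0166% of all genes were, or in OAP2 against APAP, where 0.474% were (0.274% higher and 0.199% lower). The number of members at an unadjusted p below 0.05 was 5 in OAP2 against PBS (20.8% of all genes), 10 in Oxa against PBS (27.1%), 3 in APAP against PBS (9.16%), 5 in OAP2 against Oxa (27.8%) and 5 in OAP2 against APAP (15.2%). DESeq2 called 1, 3, 0, 1 and 2 members in this order of comparisons, where it called 10.5%, 16.8%, 0.806%, 18% and 4.2% of all genes. For limma on log2(FPKM + 1) the members called were 0, 2, 0, 1 and 0, against 4.64%, 8.85%, 0.0166%, 11.8% and 0.532% of all genes.

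Group ranges overlapped for most members. All 3 OAP2 libraries lay above the PBS libraries for 2 members and below them for 1, where 9.61% and 9.55% of all genes did so. Oxa libraries lay above PBS for 1 member and below for 7 (15.1% and 15.2% of all genes), and APAP libraries above PBS for 1 and below for 10 (7.8% and 8.44%). OAP2 libraries lay above Oxa for 4 members and below for 4 (16.5% and 20% of all genes), and above APAP for 5 and below for 1 (12.3% and 13.4%). Log2 fold changes were positive for 19 of the 43 members in OAP2 against PBS (49.9% of all genes), 13 in Oxa against PBS (48.4%), 11 in APAP against PBS (49.1%), 28 in OAP2 against Oxa (50.1%) and 31 in OAP2 against APAP (50.4%).

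The data bound the size of change for most members. The 95% interval of the fold change lay within 1.5-fold either way for 36 of 43 members in OAP2 against PBS (57.2% of all genes tested), 36 in Oxa against PBS (52.6%), 37 in APAP against PBS (64.6%), 36 in OAP2 against Oxa (52.1%) and 35 in OAP2 against APAP (60.2%). Median log2 fold changes of the members were -0.01, -0.09, -0.14, 0.06 and 0.11 in the same order, and the medians over all genes tested lay between -0.013 and 0.0021. Leaving out PBS 2 gave medians of 0.07, -0.01 and -0.03 for OAP2, Oxa and APAP against PBS. Leaving out OAP2 3 gave -0.15 for OAP2 against PBS, -0.05 for OAP2 against Oxa and -0.05 for OAP2 against APAP, so these medians change sign or size with a single library. The comparisons with PBS share the same 3 control libraries, so their values are not independent of each other.

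**Figure D2:**
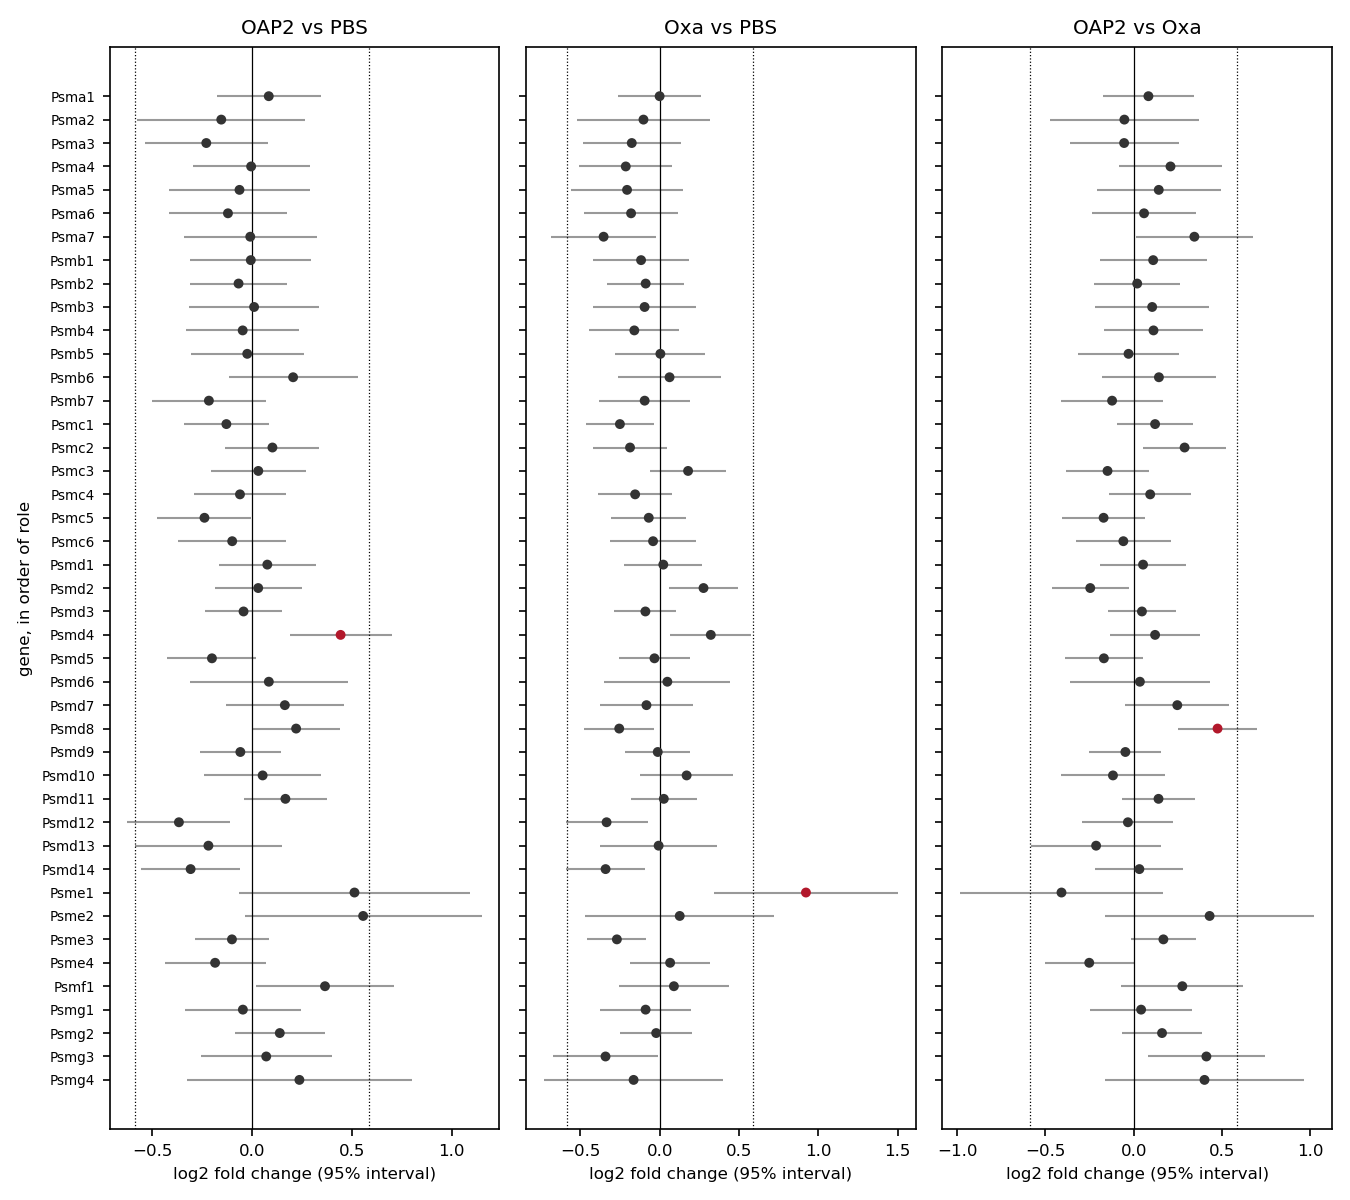
Log2 fold change with its 95% interval (edgeR) for each of the 43 tested proteasome genes, in order of role from top to bottom, in OAP2 against PBS, Oxa against PBS and OAP2 against Oxa. Dotted lines mark 1.5-fold either way, and red points are the called genes, Psmd4, Psme1 and Psmd8.

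Psmd8 encodes Rpn12, a subunit of the lid of the 19S cap, and was the only member called in OAP2 against Oxa. Its level was 56.0, 53.4 and 70.3 FPKM in OAP2 libraries, against 43.4, 40.8 and 45.6 FPKM in Oxa libraries. APAP libraries had 50.2, 49.5 and 56.7 FPKM and PBS libraries 51.3, 51.3 and 53.0 FPKM. Every OAP2 library lay above every Oxa library, and the APAP and PBS libraries all lay above the Oxa libraries too, with APAP 3 inside the OAP2 range. The fold change was 1.39 (95% interval 1.19 to 1.62; log2 0.47 ± 0.10, SE), with an adjusted p of 0.00995 from edgeR. Without OAP2 3, whose level was the highest, it was 0.34 on the log2 scale with an adjusted p of 0.0180. Against PBS the change was 0.22 for OAP2 (adjusted p = 0.242) and -0.25 for Oxa (adjusted p = 0.128, edgeR), neither of them called.

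Psmd4 encodes Rpn10, a subunit at the joint of base and lid that binds ubiquitin chains. It stood at 50.9, 47.4 and 59.0 FPKM in OAP2 libraries, against 34.5, 46.6 and 35.6 FPKM in PBS libraries. Oxa libraries had 46.5, 47.4 and 51.3 FPKM and APAP libraries 41.0, 38.1 and 41.8 FPKM. The OAP2 libraries lay above all PBS libraries, the nearest being PBS 2, and the Oxa libraries overlapped PBS 2 alone. In OAP2 against PBS the fold change was 1.36 (95% interval 1.14 to 1.62; log2 0.44 ± 0.12, SE), with an adjusted p of 0.0469 (edgeR). This call lies close to the threshold, and without PBS 1, PBS 3, OAP2 1, OAP2 2 or OAP2 3 the adjusted p was between 0.0675 and 0.143. Without PBS 2 the change was 0.59 (adjusted p = 0.00127) for OAP2 and 0.47 (adjusted p = 0.00284) for Oxa, where all 12 libraries gave 0.32 (adjusted p = 0.0979). The OAP2 and Oxa values of Psmd4 differed by 0.12 on the log2 scale, with a 95% interval from -0.13 to 0.38.

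Psme1 and Psme2 encode the alpha and beta subunits of the PA28 activator, which opens the core without ubiquitin and is known for its part in making peptides for antigen presentation. They were the most variable members. Psme1 was at 16.1, 18.7 and 22.0 FPKM in Oxa libraries, against 7.77, 16.1 and 6.11 FPKM in PBS libraries. OAP2 libraries had 15.1, 14.9 and 12.6 FPKM and APAP libraries 8.29, 7.87 and 7.49 FPKM. The Oxa and OAP2 libraries stood above all APAP libraries and above PBS 1 and PBS 3, while PBS 2 reached the lowest Oxa library. In Oxa against PBS the fold change was 1.89 (95% interval 1.27 to 2.83; log2 0.92 ± 0.27, SE), with an adjusted p of 0.0455 (edgeR). Without PBS 2 it was 1.45 on the log2 scale (adjusted p = 8.33e-05), and without PBS 1, PBS 3, Oxa 1, Oxa 2 or Oxa 3 the adjusted p was between 0.0737 and 0.147. In OAP2 against PBS the change was 0.51 (adjusted p = 0.302), and in OAP2 against APAP, whose libraries did not overlap, it was 0.82 (adjusted p = 0.177, edgeR). The gene Emc9 overlaps Psme1 on the opposite strand at 0.27 to 0.68 FPKM.

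Psme2 was at 14.7, 11.6 and 13.9 FPKM in OAP2 libraries, 10.4, 12.1 and 7.33 FPKM in Oxa libraries, 8.09, 4.86 and 9.16 FPKM in APAP libraries and 8.85, 12.5 and 6.13 FPKM in PBS libraries. OAP2 was the highest group by its mean, but PBS 2 lay within its range. OAP2 against PBS gave 0.56 (adjusted p = 0.276) and OAP2 against Oxa 0.43 (adjusted p = 0.338, edgeR). These values are uncertain, because the near copy Psme2b, which lies outside the rule, can take reads of Psme2. Psme2b was at 12.6, 11.5 and 16.1 FPKM in OAP2 libraries, 19.2, 20.9 and 31.7 FPKM in Oxa libraries, 9.06, 13.9 and 8.84 FPKM in APAP libraries and 8.96, 20.7 and 14.5 FPKM in PBS libraries, so its highest group was Oxa. With the counts of both genes summed, OAP2 against Oxa turned to -0.10 (adjusted p = 0.760) and Oxa against PBS was 0.41 (adjusted p = 0.165, edgeR).

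**Figure D3:**
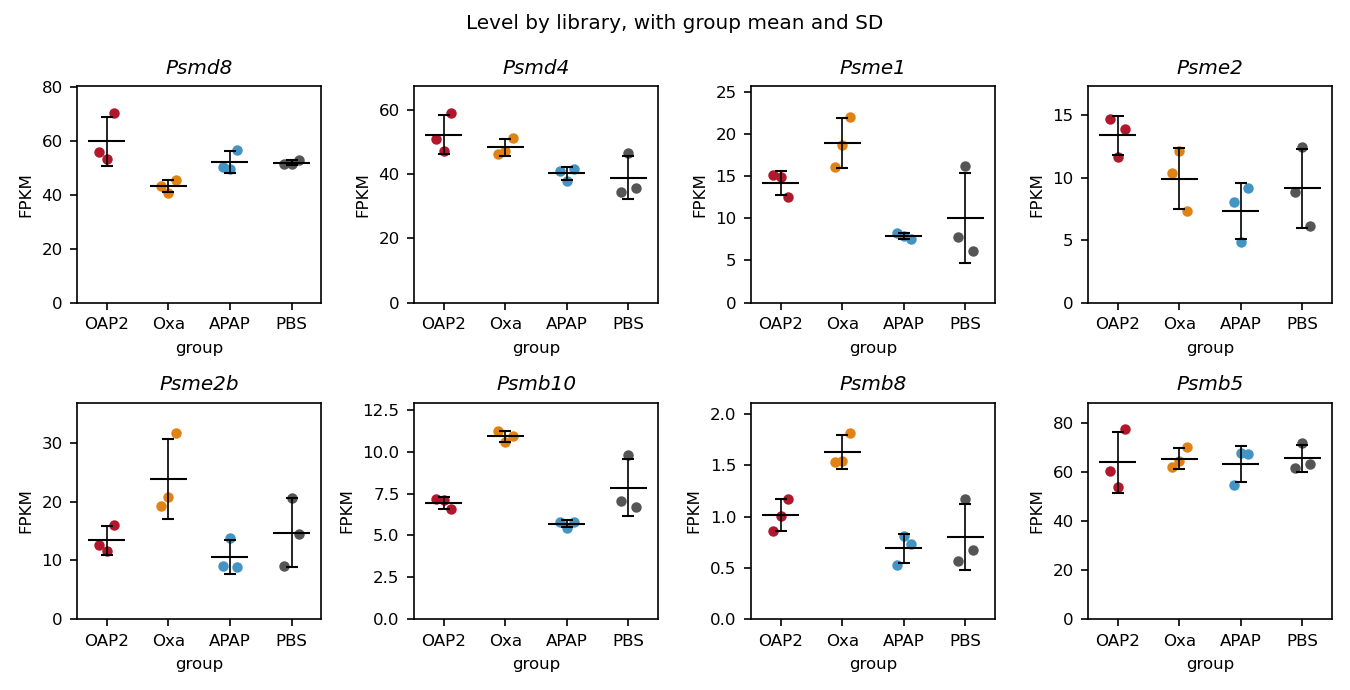
FPKM (linear axis from 0) of 8 genes in the OAP2, Oxa, APAP and PBS groups, 1 point per library, with the group mean and SD (n = 3) as bars. The control library PBS 2 lies above the other 2 for Psme1, at 16.1 against 7.77 and 6.11 FPKM, Psmd8 is lowest in the 3 Oxa libraries, and all groups overlap for Psmb5.

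The promoter windows of the called genes and of 2 catalytic genes are shown, since regulation of the proteasome genes as a set is known to act through shared promoter elements. Each line gives the 100 bases before the annotated start, from the RefSeq promoter table on GRCm38.p6, read 5′ to 3′ on the strand of the gene. Capitals mark matches to the antioxidant response element core (TGANNNNGC), the CCAAT box (CCAAT) or an interferon-stimulated response element (GAAANNGAAA). Both strands were searched, and a match on the opposite strand reads as its reverse complement.
Psmd8, chr7:29180674-29180773, minus strand: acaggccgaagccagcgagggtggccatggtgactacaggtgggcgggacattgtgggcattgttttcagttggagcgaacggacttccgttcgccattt
Psmd4, chr3:95042615-95042714, minus strand: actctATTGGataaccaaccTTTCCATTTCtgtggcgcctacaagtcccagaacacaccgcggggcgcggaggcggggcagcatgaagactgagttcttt
Psme1, chr14:55578394-55578493, plus strand: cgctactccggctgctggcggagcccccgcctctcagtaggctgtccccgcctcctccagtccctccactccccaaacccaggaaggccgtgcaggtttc
Psmb5, chr14:54617996-54618095, minus strand: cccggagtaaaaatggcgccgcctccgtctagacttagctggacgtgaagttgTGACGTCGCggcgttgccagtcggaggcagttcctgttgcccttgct
Psmb6, chr11:70525257-70525356, plus strand: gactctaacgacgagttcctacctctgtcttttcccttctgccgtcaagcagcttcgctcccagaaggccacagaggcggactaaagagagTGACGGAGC
The Psmd4 window holds a CCAAT box and an interferon-stimulated match on the opposite strand, and those of Psmb5 and Psmb6 hold an antioxidant match. None of the letters searched occur in the Psmd8 and Psme1 windows shown.

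A promoter was matched for 37 of the 44 genes, and matches were common in all promoters of the same length. In the 250 bases before the start, 15 of 37 members held the antioxidant core (40.5%), against 38.7% of 27025 gene symbols. The CCAAT box was in 35.1% of members and 37.5% of all symbols. The interferon-stimulated element, added after seeing the data, was in 3 members (8.11%; Psmb3, Psmd4 and Psmd9) and in 3.46% of all symbols. These shares are a description of letters, not of binding.

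None of the 3 catalytic beta subunits was called in any comparison. Psmb5, with the chymotrypsin-like site, was at 60.4, 53.8 and 77.6 FPKM in OAP2 libraries, 62.0, 64.4 and 70.1 FPKM in Oxa libraries, 54.9, 67.8 and 67.5 FPKM in APAP libraries and 61.6, 72.0 and 63.3 FPKM in PBS libraries. All groups overlap, and the fold change against PBS was 0.98 for OAP2 (95% interval 0.81 to 1.20), 1.00 for Oxa (0.82 to 1.22) and 0.99 for APAP (0.82 to 1.21). Psmb6, with the caspase-like site, was at 34.4, 27.8 and 47.6 FPKM in OAP2 libraries, 32.8, 31.3 and 35.7 FPKM in Oxa libraries, 25.5, 29.0 and 29.3 FPKM in APAP libraries and 31.9, 33.2 and 30.9 FPKM in PBS libraries. Its largest difference, OAP2 against APAP, was 0.36 on the log2 scale (adjusted p = 0.270, edgeR), and OAP2 2 lay inside the APAP range. Psmb7, with the trypsin-like site, was at 27.0, 26.6 and 39.5 FPKM in OAP2 libraries, 31.7, 34.2 and 35.8 FPKM in Oxa libraries, 28.9, 31.1 and 31.1 FPKM in APAP libraries and 34.4, 38.8 and 36.0 FPKM in PBS libraries. The change in OAP2 against PBS was -0.22 (adjusted p = 0.398, edgeR), with OAP2 3 above and the other OAP2 libraries below all PBS libraries.

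The 14 tested subunits of the core had small fold changes of the same sign under APAP. All 7 alpha and all 7 tested beta subunits had negative log2 fold changes in APAP against PBS, with medians of -0.23 and -0.16, while over all genes tested 49.1% were positive. None was called by edgeR, DESeq2 or limma on log2(FPKM + 1), and 1 of the 14, Psma2, had an unadjusted p below 0.05 (-0.44, adjusted p = 0.527, edgeR). APAP libraries lay below all PBS libraries in 4 alpha and 3 beta subunits, where 8.44% of all genes tested did so. The core subunits varied together over the libraries (median correlation 0.86 with the mean of the other members). These counts are therefore not of independent genes. Without PBS 2, 11 of the 14 were still negative (median -0.12, against -0.18 with all libraries), while Psma1, Psma5 and Psmb5 were positive. Without PBS 1 all 14 stayed negative (median -0.26). The negative sign was also not limited to APAP or to the core. In Oxa against PBS, with the same controls, 12 of the 14 core subunits (9 without PBS 2) and all 4 Psmg chaperones were negative. In OAP2 against PBS, 11 of the 14 core subunits and 1 of the 4 chaperones were negative. Of these 14 core subunits, 3 were negative without PBS 2, but 13 with both PBS 2 and OAP2 3 left out (median -0.12). Under APAP the 4 chaperones were negative too. Some of the values counted were very small, such as -5.9e-05 for Psma1 in Oxa against PBS and -0.00042 for Psmg2 in APAP against PBS (log2).

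The member with the smallest p among the alpha subunits was Psma7, which was at 39.6, 33.8 and 56.3 FPKM in OAP2 libraries, 32.8, 30.2 and 39.8 FPKM in Oxa libraries, 34.4, 39.4 and 41.1 FPKM in APAP libraries and 41.7, 44.4 and 45.6 FPKM in PBS libraries. The Oxa libraries lay below all PBS libraries, but the change of -0.35 was not called (adjusted p = 0.159, edgeR). Among the ATPases it was Psmc2, at 24.1, 23.9 and 32.0 FPKM in OAP2 libraries, 21.9, 20.8 and 23.0 FPKM in Oxa libraries, 23.8, 26.4 and 24.8 FPKM in APAP libraries and 24.9, 24.2 and 26.2 FPKM in PBS libraries. Oxa was the lowest group without overlap, and OAP2 against Oxa gave 0.29 (adjusted p = 0.104, edgeR). Among the chaperones it was Psmg3, at 9.66, 8.29 and 12.7 FPKM in OAP2 libraries, 6.64, 8.03 and 8.47 FPKM in Oxa libraries, 8.25, 8.62 and 10.6 FPKM in APAP libraries and 9.31, 10.1 and 10.1 FPKM in PBS libraries. Oxa was again the lowest group by its mean, with 0.41 in OAP2 against Oxa (adjusted p = 0.0974, edgeR). Psmf1 was at 5.79, 6.59 and 6.98 FPKM in OAP2 libraries, 4.71, 6.12 and 5.20 FPKM in Oxa libraries, 5.74, 5.11 and 4.88 FPKM in APAP libraries and 4.84, 6.24 and 4.06 FPKM in PBS libraries. OAP2 against PBS gave 0.36 (adjusted p = 0.214, edgeR), with PBS 2 inside the OAP2 range.

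The number of called members depended on PBS 2 and OAP2 3, and so did the number of all genes called. Without PBS 2, OAP2 against PBS called 6 members, all higher, which were Psmd4, Psmd6, Psmd7, Psme1, Psme2 and Psmf1, while 16.4% of all genes were called (8.77% higher). Without OAP2 3 it called 3, all lower, which were Psma3, Psmb7 and Psmd14, against 7.69% of all genes (4.07% lower). In Oxa against PBS without PBS 2, the 4 called members Psmd2, Psmd4, Psmd6 and Psme1 were all higher, against 25.5% of all genes called (14.2% higher). Without PBS 1, the 1 called member was Psmd12, a lid subunit, lower both in OAP2 against PBS (4.03% of all genes called) and in Oxa against PBS (6.11%). With both PBS 2 and OAP2 3 left out, OAP2 against PBS called 9 members (5 higher, 4 lower), Oxa against PBS 10 (5 higher, 5 lower), OAP2 against Oxa 9 (1 higher, 8 lower), OAP2 against APAP 2 (both higher) and APAP against PBS 0. In the same order, 23.6%, 35.4%, 28.5%, 11.9% and 0.598% of all genes were called, so the members' share was below that of all genes in each of these 5 comparisons. These counts include Psmd4 and Psme1 in both comparisons of an agent with PBS that had calls, and Psmd8 in OAP2 against Oxa.

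**Figure D4:**
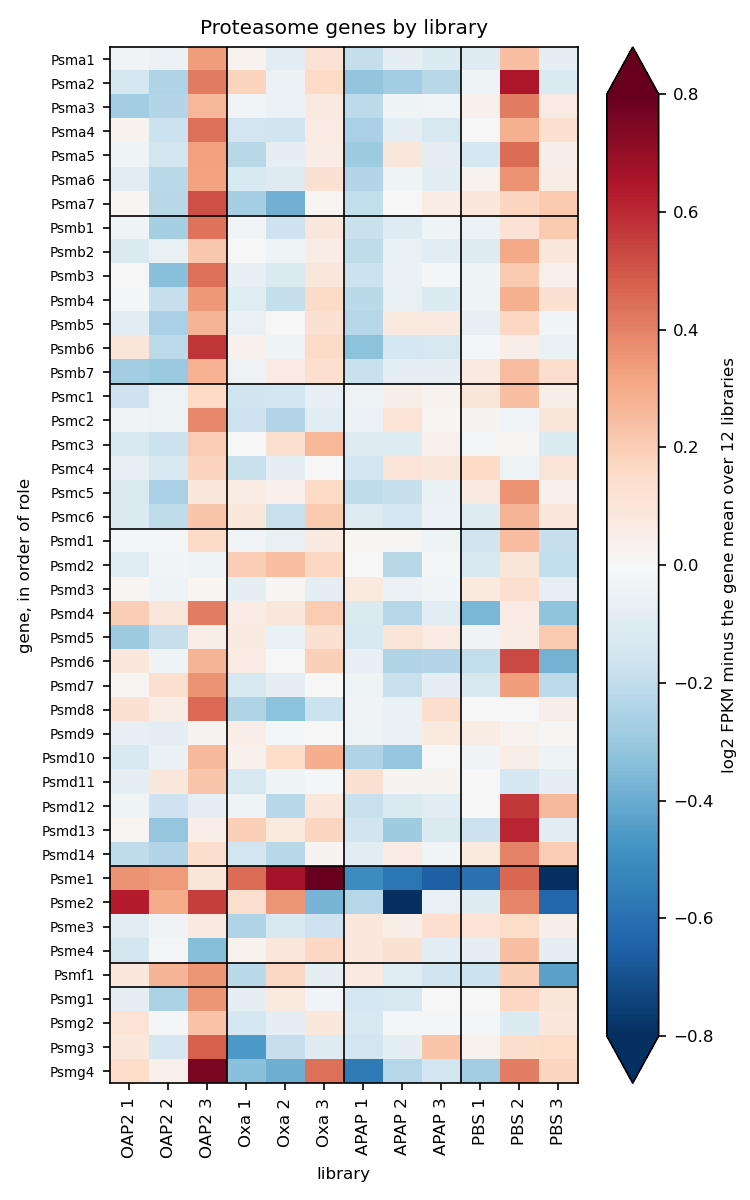
Log2 FPKM of each tested proteasome gene (rows, in order of role) minus its mean over the 12 libraries (columns, in groups OAP2, Oxa, APAP and PBS), with red above and blue below the mean. OAP2 3 was the highest of its group in 38 genes (37.6% of all genes tested), PBS 2 in 34 (42.4%) and Oxa 3 in 31 (32.4%). The rows of Psme1 and Psme2 are red in OAP2 and mostly red in Oxa.

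The core subunits followed the mean of the members closely over the libraries. The Pearson correlation over 12 libraries between a gene's log2 CPM and the mean of the other members had a median of 0.86 over the 14 core subunits, with a range from 0.63 in Psma7 to 0.94 in Psma1. Over the 17 cap subunits the median was 0.55, and the lowest was Psmd11 at 0.07. Most core subunits have coding transcripts under 1500 bases, and most cap subunits have longer ones. The part of transcript length in this difference was not tested. The chaperones of cap assembly were at 0.18 (Psmd5), 0.16 (Psmd9) and 0.63 (Psmd10). The activator Psme4 was at -0.20. The genes share their libraries and depth, and the mean log2 CPM of the members was highest in OAP2 3 (6.72) and PBS 2 (6.68), against 6.35 to 6.51 elsewhere. Outside the rule, the genes most like the mean of the members were Gm10273 (0.957), the phosphatase gene Ppp1ca (0.955), the mitochondrial ribosome gene Mrpl49 (0.951), Gm10233 (0.947) and the ribonucleoprotein gene Nhp2 (0.943), over 12 libraries each.

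The shift of OAP2 3 was shared with other short transcripts. OAP2 3 exceeded the mean of the other 2 OAP2 libraries by a median of 0.35 (log2 CPM) in the members, against -0.03 over all genes tested. Over the 1428 tested genes with coding transcripts under 1500 bases the same difference was 0.31, and over the 3448 with transcripts over 4000 bases it was -0.15. The longest coding transcripts of the members had a median of 1541 bases, against 3117 bases for all genes tested. The 21 members under 1500 bases were at 0.44 in OAP2 3 and the other 22 at 0.27. In PBS 2 the short genes were at 0.04 and the long genes at 0.00, while the members stood at 0.24. The part of transcript length in the OAP2 3 values, and of the blood cell markers in the PBS 2 values, was not tested.

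**Figure D5:**
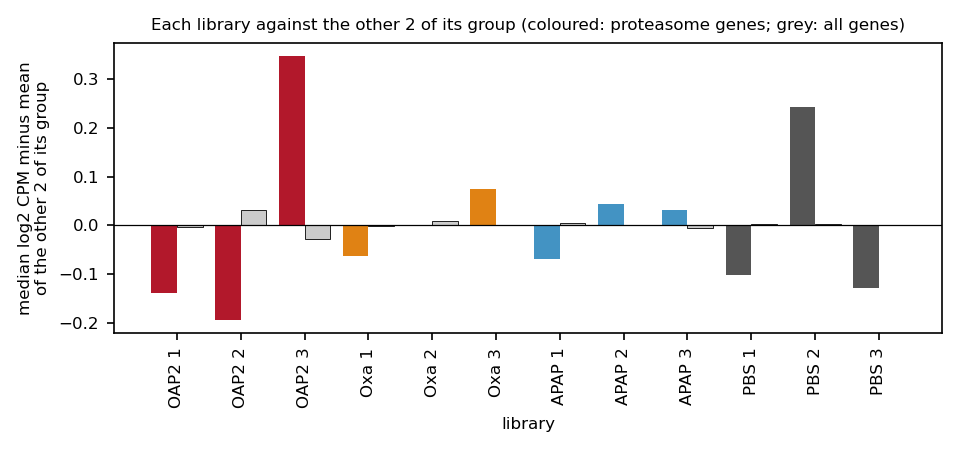
Median over the 43 proteasome genes (coloured bars) and over all 12036 tested genes (grey bars) of a library's log2 CPM minus the mean of the other 2 libraries of its group, by library. The members stand 0.35 higher in OAP2 3 and 0.24 higher in PBS 2, while all genes stay within 0.04 of 0.

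The immunoproteasome subunits, which replace the catalytic beta subunits under interferon, were set beside the members. Psmb8 was at 1.53, 1.54 and 1.82 FPKM in Oxa libraries, against 0.57, 1.17 and 0.67 FPKM in PBS libraries, with 0.86, 1.01 and 1.17 FPKM in OAP2 libraries and 0.53, 0.81 and 0.73 FPKM in APAP libraries. The Oxa libraries lay above all others, and Oxa against PBS was 1.03 (adjusted p = 0.0341, edgeR), at a level near 1 FPKM. Psmb10 was at 7.15, 7.10 and 6.55 FPKM in OAP2 libraries, against 11.3, 10.6 and 10.9 FPKM in Oxa libraries, with 5.81, 5.44 and 5.82 FPKM in APAP libraries and 7.03, 9.82 and 6.69 FPKM in PBS libraries. The APAP libraries lay below all others, but APAP against PBS was not called (-0.43, adjusted p = 0.427, edgeR). Psmb10 was lower in OAP2 than in Oxa (-0.65, adjusted p = 0.0133, edgeR), and Oxa against PBS was 0.48 (adjusted p = 0.0558). Psmb9 reached at most 0.51 FPKM and was not tested. The Psmb8 call was lost when PBS 1, PBS 3 or any single Oxa library was left out (adjusted p up to 0.121) and was 1.41 on the log2 scale without PBS 2, and the Psmb10 call was lost without Oxa 1 or Oxa 2 (adjusted p up to 0.0593). Of all 15 alternatives, the Psmb8 call was kept in 8 and the Psmb10 call in 13. Without PBS 2, Psmb10 was called as higher in Oxa than in PBS (0.68, adjusted p = 0.00158, edgeR).

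Among 12 known regulators of proteasome genes, edgeR called 2 in OAP2 against PBS, 4 in Oxa against PBS and 2 in OAP2 against Oxa. Of all genes tested, 5.25%, 10.1% and 12.9% were called there. DESeq2 called 2, 5 and 4 of the 12 (10.5%, 16.8% and 18% of all genes). For limma on log2(FPKM + 1) the counts were 2, 2 and 1 (4.64%, 8.85% and 11.8%). The calls in OAP2 against PBS were Keap1, the adaptor that marks Nfe2l2 for degradation, as higher (0.39, adjusted p = 0.0311) and Maff, a small Maf partner of Nfe2l1 and Nfe2l2, as lower (-0.55, adjusted p = 0.0301, edgeR). The calls in Oxa against PBS included Keap1 (0.56, adjusted p = 0.00525) and the interferon regulatory factor Irf1 (1.13, adjusted p = 0.0225) as higher, and Ngly1, which removes sugars from the Nfe2l1 protein, as lower (-0.66, adjusted p = 0.0265, edgeR). In OAP2 against Oxa, Ddi2, the protease that cuts the Nfe2l1 protein, was higher (0.35, adjusted p = 0.0328), as was Nlrc5, a driver of MHC class I genes (0.94, adjusted p = 0.0451, edgeR). Nlrc5 was named after its values were seen. Nfe2l1 itself averaged 90.6 ± 3.98 FPKM in OAP2, 88.9 ± 1.36 FPKM in Oxa, 81.3 ± 3.79 FPKM in APAP and 84.2 ± 5.12 FPKM in PBS libraries (SD, n = 3 each), with no call in any comparison. The median log2 fold change of the 12 was 0.12 in OAP2 against PBS, 0.05 in Oxa against PBS and -0.02 in OAP2 against Oxa. Keap1 in Oxa stayed called in all 15 alternatives tried, while in OAP2 it lost its call without PBS 3, OAP2 1 or OAP2 2 (adjusted p up to 0.113). The calls were also lost for Maff without PBS 1, OAP2 1 or OAP2 2 (up to 0.124) and for Irf1 when any single Oxa library was left out (up to 0.0788). Ngly1 lost its call without PBS 3, Oxa 2 or Oxa 3 (up to 0.0970), and Ddi2 when any single Oxa library, OAP2 1 or OAP2 2 was left out (up to 0.0992). Some alternatives other than leaving out a library lost these calls too. Of all 15, the call was kept in 9 for Keap1 in OAP2, 10 for Maff, 10 for Irf1, 8 for Ngly1 and 8 for Ddi2.

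Of 12 assembly and associated genes tested, Zfand5, which binds the proteasome and raises its activity, was higher in OAP2 than in PBS (0.64, adjusted p = 0.0317) and than in Oxa (0.52, adjusted p = 0.0434, edgeR). It was at 11.0, 10.6 and 10.4 FPKM in OAP2 libraries, 7.45, 6.93 and 7.99 FPKM in Oxa libraries, 7.65, 7.05 and 7.33 FPKM in APAP libraries and 5.97, 9.31 and 5.43 FPKM in PBS libraries, so OAP2 lay above all other libraries. Ipo9, a nuclear import receptor, was lower in OAP2 than in Oxa (-0.36, adjusted p = 0.0212, edgeR). Of 16 ubiquitin and delivery genes, the shuttle gene Ubqln4 was higher in Oxa than in PBS (0.38, adjusted p = 0.0417, edgeR), and Ddi2, which is on this list too, was the only other call. The Zfand5 call was lost against PBS without PBS 1, PBS 3, OAP2 1 or OAP2 2 (adjusted p up to 0.105) and against Oxa when any single library of OAP2 or Oxa was left out (up to 0.130). The Ipo9 call was lost when any single Oxa library or OAP2 1 was left out (up to 0.0894), and the Ubqln4 call when PBS 1, PBS 3 or any single Oxa library was (up to 0.185). Of all 15 alternatives, the Zfand5 call was kept in 9 against PBS and 5 against Oxa. The Ipo9 call was kept in 11 and the Ubqln4 call in 7. Without PBS 2 Zfand5 was 0.92 higher in OAP2 than in PBS on the log2 scale. Of the 41 distinct genes tested in these 4 lists, edgeR called 3 in OAP2 against PBS, 6 in Oxa against PBS and 5 in OAP2 against Oxa. The shares of all genes were 5.25%, 10.1% and 12.9%. In APAP against PBS and OAP2 against APAP edgeR called 0 and 0 (0.0166% and 0.474% of all genes). At an unadjusted p below 0.05 (edgeR) were 2 and 9 of the 41 there (9.16% and 15.2% of all genes). DESeq2 called 0 and 1 there (0.806% and 4.2% of all genes), and limma 0 and 0 (0.0166% and 0.532%).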

How the data were processed

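Poly(A) RNA of 12 libraries was sequenced as read pairs from strand-marked libraries, per the labels' protocols. The submitters' processing notes list StringTie 2.1.6, HISAT2 2.2.1 and cutadapt 1.9 beside edgeR and DESeq2, with no roles, and the build mm9, while 90.9% of 29864 genes matched to GENCODE M21 have GRCm38 positions. The authors deposited FPKM values, scaled to transcript length and library, and whole-number estimated counts that are not scaled between libraries. How strand and multiply mapped reads were treated in counting is not given in the sources used here. On the opposite strand, 8 members overlap a protein-coding gene. Psma2, Psmd1 and Psmg3 overlap a protein-coding gene on the same strand, where strand cannot separate the reads. The PBS values come from columns named CON, inferred to be PBS because every other group has a drug.

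FPKM served for levels and estimated counts for tests. Genes at FPKM of at least 1 in at least 3 libraries (12036) were fitted with edgeR 4.0.16 (R 4.3.3; TMM, glmQLFit, glmQLFTest, 2-sided) with 1 mean per group over all 12 libraries, and p-values were adjusted by Benjamini-Hochberg over all genes tested. The SE of a log2 fold change was its size over the root of the F statistic, and intervals are 95%. A prior count of 2 was added for log2 CPM. Depth was 64071751 to 71500487 counts per library.

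The members and lists were chosen with earlier results of these data known. Values in every library are given for called members, the catalytic subunits, Psme1, Psme2 and the member with the smallest p of each remaining role. From the other lists up to 4 called genes each are named, with a few more after their values were seen as stated. Alternatives were other scalings, DESeq2 1.42.0, limma 3.58.1 on log2(FPKM + 1) or log2(FPKM + 0.1), no filter, the 6 libraries compared, a replicate block and leaving out each library. Leaving out PBS 2 and OAP2 3 together, and summing Psme2 with Psme2b, were added after seeing the data. Promoters came from the RefSeq table (GRCm38.p6). One called regulator gene is counted but not reported here by name.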

Additional observations from a re-analysis of the deposited data

Results flagged for a closer look

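The OAP2 and Oxa groups differed by a direct test (edgeR quasi-likelihood, adjusted over all 12036 genes) in 1 proteasome member, Psmd8, and in 4 named genes of the other lists, while 12.9% of all genes tested were called. Psmd8 was 0.47 higher on the log2 scale in OAP2 than in Oxa (adjusted p = 0.00995), with all 3 OAP2 libraries above all 3 Oxa libraries. Zfand5 was 0.52 higher in OAP2 (adjusted p = 0.0434) and Ddi2 0.35 higher (adjusted p = 0.0328). The immunoproteasome gene Psmb10 was at -0.65 in OAP2 against Oxa (adjusted p = 0.0133) and Ipo9 at -0.36 (adjusted p = 0.0212). Nlrc5, named after its values were seen, also differed (0.94 higher in OAP2, adjusted p = 0.0451).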

How the results depend on the processing

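The number of called members in OAP2 against PBS was 1, and it was 0 with limma at either pseudocount, 0 without the filter, 0 with the 6 libraries alone and 0 with the replicate block, where Psmd4 had an adjusted p of 0.0707. It was 9 with PBS 2 and OAP2 3 both left out, and 0 to 6 when a single library was left out. All genes called were 632, with 38 for the 6 libraries alone, 2838 with both libraries left out and 252 to 1976 with 1 left out. In Oxa against PBS it was 1, with 2 under upper-quartile scaling, 3 with DESeq2, 2 and 2 with limma, 0 without the filter, 0 with the 6 libraries alone, 10 with both libraries left out and 0 to 4 with a single library left out, where all genes called were 1217, 523 with the 6 libraries alone, 4258 with both and 477 to 3066 with 1 left out. OAP2 against Oxa gave 1, with 9 when both libraries were left out and 1 to 2 when a single library was, while all genes called were 1557, 3426 and 688 to 1501. OAP2 against APAP gave 0, with 2 under DESeq2, 1 with the 6 libraries alone and 2 with both libraries left out, where all genes called were 57, 506, 286 and 1438 in this order. APAP against PBS gave 0 in every alternative run. Of 15 calls of single genes, 2 held in all 15 of their alternatives, Psmd8 in OAP2 against Oxa and Keap1 in Oxa against PBS. A further tally took named genes at an unadjusted p below 0.05 (edgeR) with all libraries, and the sum of Psme2 with Psme2b. Of its 696 values under an alternative, 581 kept direction and side of the threshold, 84 lost the call, 30 gained it and 1 reversed. The reversed value was Psme2 in OAP2 against Oxa, which was 0.43 and became -0.10 with the counts of Psme2 and Psme2b summed. Weaker values were outside the tally, and some changed sign, such as Psmb5 in APAP against PBS without PBS 2. The cause of these changes was not tested. Fits of the 6 libraries compared have fewer samples, but did not always call fewer genes. They called fewer in each comparison with PBS, but 1876 in OAP2 against Oxa and 286 in OAP2 against APAP, where all 12 libraries gave 1557 and 57. Correlations of deviations from the group means ran from -0.152 to 0.155 over 18 same-numbered pairs of libraries. Pairs with different numbers were not computed, so these values cannot decide whether replicate numbers mark a shared culture or day. With the replicate block the count of called members was unchanged in the other 4 comparisons. The common biological coefficient of variation was 18.1%, and the median SE of a member in OAP2 against PBS was 0.13 on the log2 scale.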
